A study of Mus musculus with 16 samples.

Results

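The Wnt pathway's extracellular and signalling components were followed here through the maturation of medullary thymic epithelial cells (mTEC). Of the 53464 Ensembl gene rows in the count table, 56 were chosen by a rule on symbols that used no measured value. Earlier results of these data were known when they were chosen. They comprised 19 Wnt ligands, 10 Frizzled (Fzd) receptors, the co-receptors Lrp5 and Lrp6, 4 R-spondins (Rspo) and their 3 Lgr receptors, 4 Dickkopf (Dkk) proteins and 2 Kremen receptors, 4 secreted Frizzled-related proteins (Sfrp), Wif1, and, inside the cell, Ctnnb1 (beta-catenin), Axin2, Nkd1 and the 4 TCF/LEF transcription factors Tcf7, Tcf7l1, Tcf7l2 and Lef1. The rule dropped 1 further symbol that named a pseudogene or an opposite-strand transcript.

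The libraries came from a study of splicing regulators in the thymus of mice aged 4 to 6 weeks. In 2 lines, Rbfox1 or Rbfox2 carried loxP sites on both alleles in every mouse. Controls (Rbfox1 lox/lox or Rbfox2 lox/lox, with Foxn1 wildtype/wildtype) lacked Cre, and knock-outs (tKO, Foxn1 wildtype/cre) carried a Cre at the Foxn1 locus, so that deletion was meant for thymic epithelium and the presence of Cre and the loss of the gene cannot be told apart. Each line and genotype had 2 mice, 1 female and 1 male, and from each mouse 10000 mature (CD45- EpCAM+ Ly51- UEA+ MHCII high) and immature (MHCII low) mTEC gave 1 RNA-seq library, 16 in all. The strain is labelled C57BL/6, whereas the methods describe a mixed background.

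The mature libraries held 3737884 to 4636367 counts and the immature ones 1506134 to 2430287, so 3 counts, the limit that a count of 0 allows, stood for 0.647 to 0.815 CPM in mature and 1.23 to 2.01 CPM in immature libraries. Levels are CPM throughout, counts per 1000000 of each library's effective size, which is its total times edgeR's TMM factor. Counting intervals and limits cover counting error only. The sort labels held: Epcam lay at 588 to 660 CPM in mature and 684 to 786 CPM in immature libraries, and Aire, which marks mature mTEC, at 651 to 1612 and 18.8 to 299 CPM. Rbfox2 stood at 9.51 to 16.3 CPM in mature and 22.6 to 36.2 CPM in immature Rbfox2 tKO libraries, against 57.4 to 59.1 and 92.4 to 105 CPM in that line's controls. Rbfox1 stood at 30.2 to 34.7 CPM in mature Rbfox1 tKO against 49.3 to 53.3 CPM, and at 146 to 149 against 160 to 162 CPM in immature cells, with whatever exons the deletion leaves included in the count. Markers of other cells were present. The sum of 7 mesenchymal markers lay at 413 to 728 CPM in mature libraries, at 355 to 696 CPM in immature libraries of the Rbfox1 line and at 1848 to 2719 CPM in those of the Rbfox2 line, none of the 7 being at 0 in any library. The sum of 12 thymocyte markers lay at 155 to 200 CPM in mature and 23.0 to 76.5 CPM in immature libraries, where Cd3e was at 0 in 4 of 8, Rag2 in 6 and Ptcra in 7.

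Wnt proteins are lipid-modified, secreted signals that bind Frizzled receptors. In the canonical branch, a Wnt bound to a Frizzled and Lrp5 or Lrp6 keeps beta-catenin from destruction, and beta-catenin then works with TCF/LEF factors on target genes. R-spondins, through Lgr receptors, keep Frizzleds at the cell surface, Dickkopf proteins with Kremen remove Lrp co-receptors from it, and Sfrp proteins and Wif1 bind the ligands themselves. In the thymus, Wnt4 is known as a ligand made by epithelium that sustains Foxn1, and Tcf7 is best known from the T cell lineage.

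Promoter windows show the genome sequence at the start of the genes that mark the extremes below. RefSeq windows (GRCm38.p6, 250 bases before to 50 after each transcript start) matched 38 of the 56 genes. The 4 printed here belong to Dkk1 and Wnt8b, which were almost unread in immature and read in mature cells, and to Wnt4 and Fzd7, the ligand and the receptor with the highest level per length in immature cells. Each is written 5' to 3' on the gene's own strand, with CG dinucleotides, where DNA methylation can fall, in capitals. The windows are Dkk1 at chr19:30549447-30549746 (minus strand), Wnt8b at chr19:44493222-44493521 (plus), Wnt4 at chr4:137277385-137277684 (plus) and Fzd7 at chr1:59481897-59482196 (plus, before the start of the Ensembl gene model).
Dkk1: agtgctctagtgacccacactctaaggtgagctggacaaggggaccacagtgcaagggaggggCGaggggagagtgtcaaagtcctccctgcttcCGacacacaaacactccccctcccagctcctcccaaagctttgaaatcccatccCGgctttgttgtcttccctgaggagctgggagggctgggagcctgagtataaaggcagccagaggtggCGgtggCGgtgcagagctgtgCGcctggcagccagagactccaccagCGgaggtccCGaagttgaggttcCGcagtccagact
Wnt8b: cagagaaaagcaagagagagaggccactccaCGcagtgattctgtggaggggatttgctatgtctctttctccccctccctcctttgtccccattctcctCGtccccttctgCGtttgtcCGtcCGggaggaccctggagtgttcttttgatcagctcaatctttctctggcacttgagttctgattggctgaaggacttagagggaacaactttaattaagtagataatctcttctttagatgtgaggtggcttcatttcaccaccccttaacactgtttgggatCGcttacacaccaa
Wnt4: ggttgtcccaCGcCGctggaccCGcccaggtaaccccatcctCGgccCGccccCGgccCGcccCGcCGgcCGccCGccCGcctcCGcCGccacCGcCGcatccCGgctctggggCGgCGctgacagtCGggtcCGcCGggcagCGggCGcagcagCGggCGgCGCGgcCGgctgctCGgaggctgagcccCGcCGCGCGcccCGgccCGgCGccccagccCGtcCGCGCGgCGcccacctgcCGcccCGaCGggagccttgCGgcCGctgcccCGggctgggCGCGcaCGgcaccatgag
Fzd7: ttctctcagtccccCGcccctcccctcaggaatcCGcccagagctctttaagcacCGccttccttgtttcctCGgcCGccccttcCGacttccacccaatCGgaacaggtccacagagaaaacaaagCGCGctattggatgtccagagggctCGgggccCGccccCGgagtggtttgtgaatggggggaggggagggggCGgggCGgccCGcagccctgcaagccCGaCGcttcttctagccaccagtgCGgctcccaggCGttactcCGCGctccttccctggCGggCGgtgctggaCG

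The Dkk1 window holds 9 CG dinucleotides and the Wnt8b window 6, against 51 in the Wnt4 window and 24 in that of Fzd7. Of 16504 protein-coding genes with a window, 38.6% held no more CG than Dkk1, 31.9% no more than Wnt8b, 1.09% at least as many as Wnt4 and 30.6% at least as many as Fzd7. These 4 genes were picked for their levels and do not stand for the rest. The 15 genes with a window that were called higher in mature mTEC had a median of 29 (6 to 45) and the 4 called lower a median of 21 (17 to 51), against 29 (6 to 58) over the 38 genes and 15 (0 to 67) over protein-coding genes. CTTTGAT, a form of the TCF/LEF core, was searched on both strands. It occurred in 2 of the 47 windows of these genes, those of Wnt11 and Wnt5b, and in 3.73% of all 32851 windows. The variant CTTTGAA, which the printed Dkk1 window holds, was not counted.

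Far more of the 56 genes were read in mature than in immature libraries, although they took a smaller part of the counts. A count was present for 54 to 56 of them in mature and 39 to 47 in immature libraries, while their summed share of counts was 0.238 to 0.254% in mature and 0.318 to 0.383% in immature libraries. With every library thinned to the smallest total of 1506134 counts, 52 to 55 were read in mature and 39 to 45 in immature libraries. The mature library exceeded the immature one of the same mouse by 8 to 15 genes in all 8 mice, with a median of 11.5. Protein-coding genes as a whole did likewise, with 17187 to 17551 against 14480 to 15165 read of 21942 at that depth. Among the ligands, 17 to 19 of 19 were read in mature and 11 to 15 in immature libraries, whereas 9 to 10 of the 10 Frizzleds were read in either.

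**Figure D1:**
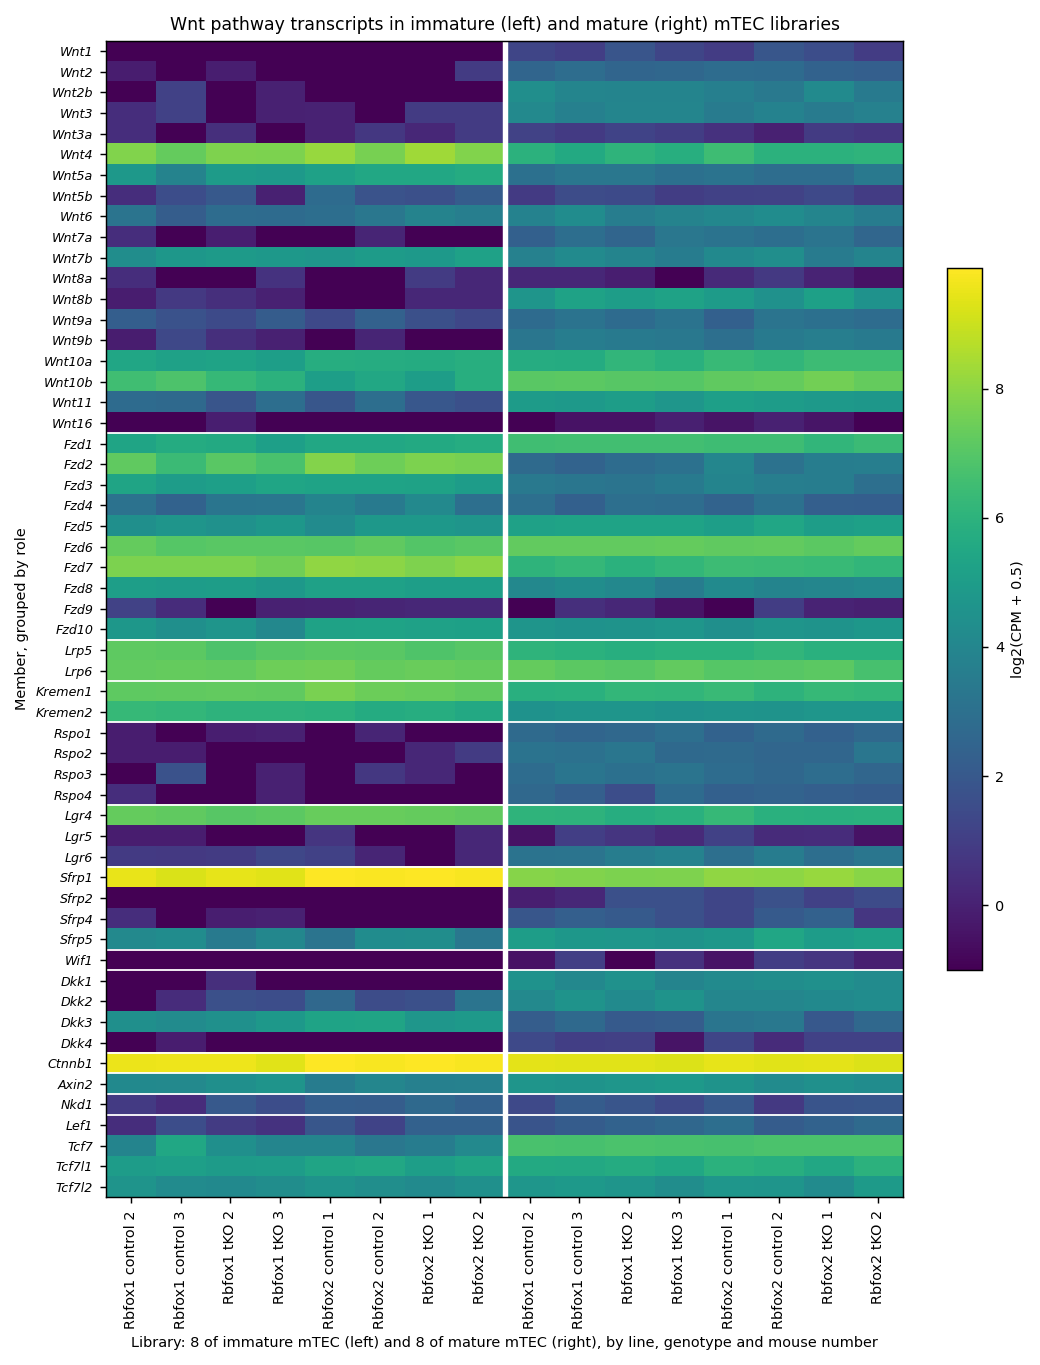
Level of each of the 56 genes (rows, grouped by role) in the 8 immature libraries on the left and the 8 mature libraries on the right (columns, by line, genotype and mouse), as log2(CPM + 0.5) from dark (low) to bright (high). Many ligands and all R-spondins are dark on the left and lit on the right, while Sfrp1, Fzd2, Fzd7, Wnt4 and Kremen1 are brighter on the left.

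In control mice, 17 of the 44 genes that could be tested were called higher in mature mTEC and 12 lower (edgeR quasi-likelihood test, Benjamini-Hochberg adjusted p under 0.05 and a change of more than 2-fold). That is 38.6% higher against a background of 24.1% of the 15357 gene rows tested, and 27.3% lower against 10.7%. The count of higher genes is not a result about these genes alone, since 12 of the 17 had under 10 counts in every immature control library and passed the filter on low counts only through the mature libraries. Among the 28 genes with at least 10 counts in every library, 5 were called higher (17.9%, background 9.66%) and 10 lower (35.7%, background 9.79%), with scaling over the genes left moving their log2 fold changes by a median of 0.15. The median log2 fold change was 0.50 over the 44 genes against 0.02 over all genes tested, and -0.34 against 0.00 under the stricter filter. In all 29 genes called, the 4 mature and 4 immature control libraries did not overlap. This adds no support to the calls, which were made on the same libraries, and the share over all genes is not given here. In bulk libraries such as these, fewer cells of a type and less RNA per cell cannot be told apart.

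Wnt ligands changed in kind more than in sum. Per kilobase of exon, the 19 ligands together stood at 132 ± 10.7 CPM per kb (SD, n = 4) in mature and 109 ± 8.4 CPM per kb in immature control mTEC. Wnt4 made up 47.4% ± 8.5 of that sum in immature and 11.8% ± 2.3 in mature cells, and Wnt10b 19.6% ± 11.3 and 32.5% ± 1.5. Of 14 ligands tested, Wnt4 and Wnt5a were called lower (background 10.7%) and 9 higher (background 24.1%) in mature mTEC. Among the 9, Wnt2, Wnt2b, Wnt3, Wnt7a, Wnt8b and Wnt9b had under 10 counts in every immature control library. These passed the filter on low counts only through the mature libraries, so the count of 9 is not a result about the family.

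Wnt4 (chr4:137277489-137299726), the thymic epithelial ligand, was measured at 61.9 and 48.6 CPM in mature mTEC of the Rbfox1-line controls 2 and 3 and at 88.7 and 62.1 CPM in those of the Rbfox2-line controls 1 and 2. The immature libraries of the same mice held 225, 159, 290 and 201 CPM. Every immature library lay above every mature one, and Wnt4 was 3.42-fold lower in mature mTEC (log2 fold change -1.77 ± 0.13 SE, adjusted p = 3.31e-09, edgeR quasi-likelihood). Wnt5a (chr14:28504750-28527448), a ligand known mainly from signalling without beta-catenin, stood at 7.55, 9.42, 8.37 and 6.96 CPM in mature and at 26.8, 13.9, 37.2 and 45.3 CPM in immature mTEC of these mice, in the same order. The groups did not overlap, and the spread among immature libraries was wide. Its log2 fold change was -1.86 ± 0.21 (adjusted p = 4.63e-07, edgeR quasi-likelihood).

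Wnt10b (chr15:98770712-98778150), a canonical ligand, was the ligand with the highest level per length in mature mTEC. It stood at 135, 140, 148 and 158 CPM in the mature libraries and at 92.0, 114, 33.9 and 44.7 CPM in the immature ones. The mature libraries lay above all immature ones, but the distance was small in the Rbfox1-line mice and large in the Rbfox2-line mice. Over the 4 control mice Wnt10b was 2.25-fold higher (log2 fold change 1.17 ± 0.10, adjusted p = 8.64e-09, edgeR quasi-likelihood). Within the Rbfox1 line alone the change was 0.41 ± 0.12, under 2-fold, and within the Rbfox2 line 1.93 ± 0.15. Wnt6 rose by 1.21 ± 0.24 on the log2 scale (adjusted p = 0.000243, edgeR quasi-likelihood), with 13.6 to 19.1 CPM in mature and 4.09 to 9.41 CPM in immature mTEC. Without the immature library of Rbfox1-line control 3 its change of 0.97 was no longer over 2-fold. Wnt11, a ligand of non-canonical signalling, was 5.41-fold higher in mature mTEC, with 28.0 to 34.4 CPM against 3.23 to 7.06 CPM.

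Of the ligands, 6 stood near the counting limit in immature controls and well above it in mature controls. Wnt8b (chr19:44493472-44514273), a ligand known from the developing forebrain, was read at 25.0, 37.5, 30.8 and 22.4 CPM in mature mTEC and at 0.426, 1.23, 0 and 0 CPM in immature mTEC. Pooled over the 4 mice this is 506 against 4 counts, a ratio of 60.7 in CPM with an exact 95% counting interval of 23.6 to 224. Wnt2 was read with 110 against 1 counts (ratio 52.8, interval 9.28 to 2103) and Wnt2b with 253 against 4 (30.3, 11.7 to 112). These are broad intervals, and the fitted size rests on single reads: leaving out 1 immature library moved the log2 fold change of Wnt2 from 6.01 to 7.40 (without Rbfox1-line control 2) and that of Wnt2b from 6.24 to 8.54 (without Rbfox1-line control 3). Wnt7a had a ratio of 18.7 (6.25 to 92.0), Wnt3 one of 16.3 (7.79 to 41.0) and Wnt9b one of 11.4 (5.43 to 28.9). Wnt3 and Wnt9b are neighbours on chromosome 11, with 24328 bases between them and opposite strands. Wnt6 and Wnt10a on chromosome 1 are 6193 bases apart, and Wnt10b and Wnt1 on chromosome 15 are 11706 bases apart. Wnt1 was read with 35 counts in mature and none in immature control mTEC, at least 5.60-fold more, against a limit of 3 counts over the group. In mature cells Wnt10a and Wnt10b stood well above these neighbours, Wnt6 at 19.1 CPM or less and Wnt1 at 3.23 CPM or less.

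Of the other ligands tested, Wnt9a, Wnt10a and Wnt7b passed the adjusted p without reaching a 2-fold change, Wnt9a and Wnt10a with more in mature and Wnt7b with more in immature cells. Wnt16, Wnt1, Wnt3a, Wnt5b and Wnt8a were too low to test.

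**Figure D2:**
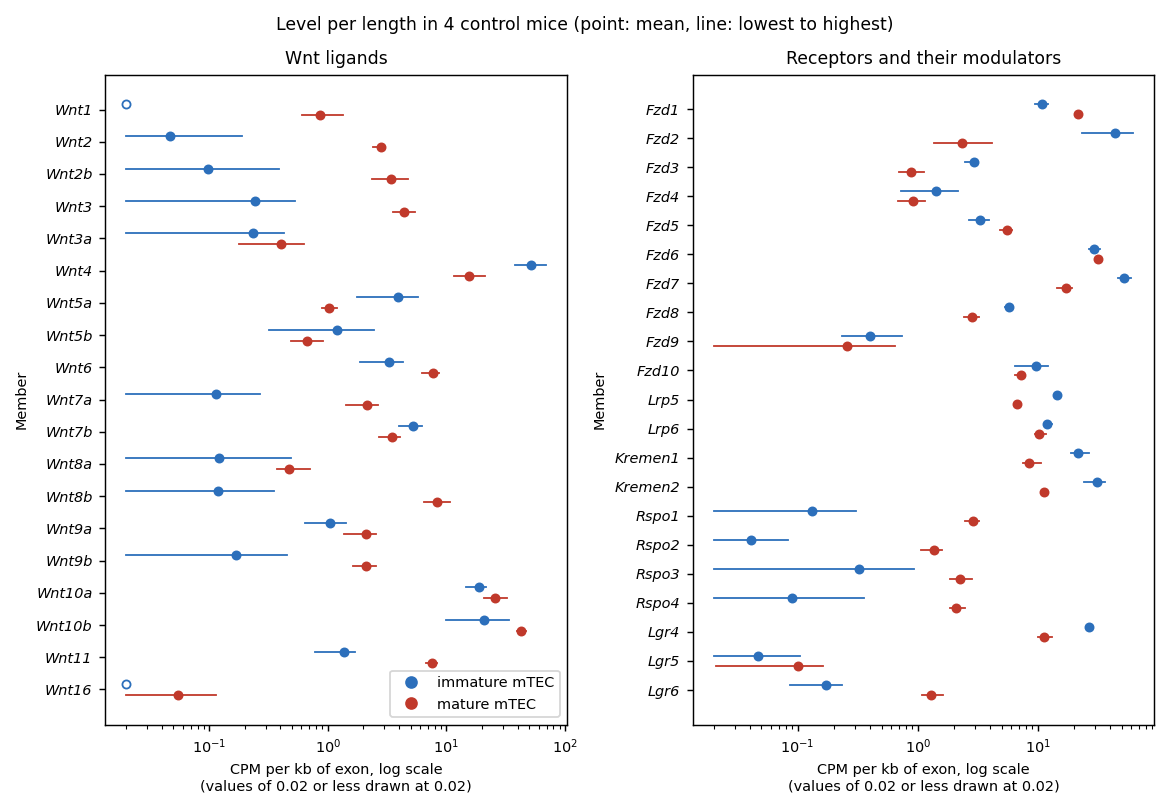
Level per length (CPM per kb of exon, log axis) of the Wnt ligands on the left and of receptors and their modulators on the right, in immature and mature mTEC of the 4 control mice. Points are means and lines run from the lowest to the highest mouse. Wnt4 leads the ligands in immature and Wnt10b in mature cells, and Fzd2 spans the widest distance among Frizzleds.

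R-spondins were close to absent from immature reads. Summed per length, the 4 stood at 8.59 ± 0.75 CPM per kb in mature and 0.588 ± 0.42 CPM per kb in immature control mTEC. All 4 were called higher (background 24.1%), but each had under 10 counts in every immature control library. They passed the filter only through the mature libraries, so that count is not a result about the family. Rspo1 (chr4:124986430-125009099) was read at 6.26, 5.26, 4.78 and 6.21 CPM in mature and at 0.426, 0, 0 and 0.588 CPM in immature libraries, or 98 against 2 counts (ratio 23.5, interval 6.34 to 197). Rspo2 had 122 against 2 counts (29.3, 7.93 to 244), Rspo4 86 against 2 (20.6, 5.54 to 173) and Rspo3 122 against 9 (6.5, 3.32 to 14.6), although 13.1% of the exon bases of Rspo3 overlap an opposite-strand gene model. All 4 R-spondins stayed at 8.76 CPM or less in mature controls, far below the leading ligands.

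The R-spondin receptors moved apart. Lgr4 (chr2:109917647-110014257), which carried nearly all Lgr reads, was measured at 65.6, 63.7, 77.0 and 59.4 CPM in mature and at 159, 147, 163 and 164 CPM in immature libraries. The immature values sat close together and well above the mature ones (log2 fold change -1.27 ± 0.08, adjusted p = 5.14e-10, edgeR quasi-likelihood). Lgr6 rose, with 7.41 to 11.2 CPM in mature against 0.588 to 1.62 CPM in immature cells (154 against 10 counts, ratio 7.39, interval 3.91 to 15.7). Lgr5, a stem cell marker in other epithelia, was too low to test, at 0.216 to 1.67 CPM in mature and 0 to 1.08 CPM in immature controls.

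Most of the change among Frizzled receptors was downward. Of 9 tested, edgeR called 4 lower (Fzd2, Fzd3, Fzd7 and Fzd8), against a background of 10.7%. Fzd1 and Fzd5 passed its adjusted p in the other direction under 2-fold, and Fzd1, at 88.7 to 94.6 CPM in mature and 39.6 to 51.1 CPM in immature controls, was called higher by DESeq2. Summed per length, the 10 Frizzleds stood at 90.3 ± 2.4 CPM per kb in mature and 159 ± 25.8 CPM per kb in immature controls. Fzd2 (chr11:102604396-102608058) was read at 6.26, 5.04, 15.3 and 7.95 CPM in mature and at 147, 85.5, 229 and 175 CPM in immature mTEC. The lowest immature library lay several-fold above the highest mature one. Fzd2 was 19.1-fold lower in mature cells (log2 fold change -4.26 ± 0.19, adjusted p = 3.77e-12, edgeR quasi-likelihood), and its part of the Frizzled sum was 26.6% ± 6.3 in immature and 2.60% ± 1.34 in mature mTEC.

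Fzd7 (chr1:59482424-59486955), at 65.8, 74.2, 86.6 and 84.2 CPM in mature and 209, 210, 270 and 254 CPM in immature mTEC, was 3.08-fold lower with no overlap. Fzd3, a receptor of planar polarity, fell by 1.76 on the log2 scale, and Fzd8 by 1.05, a change that was under 2-fold when the mature library of Rbfox1-line control 2 or Rbfox2-line control 2 was left out. Fzd6, the leading Frizzled per length in mature cells, stood at 149 to 153 CPM in mature and 128 to 159 CPM in immature libraries, which overlapped (log2 fold change 0.07 ± 0.08, adjusted p = 0.466, edgeR quasi-likelihood). The order within the family thus went from Fzd7, Fzd2 and Fzd6 in immature to Fzd6, Fzd1 and Fzd7 in mature cells, and in immature cells Fzd7 and Fzd2 were not separated, with 46.2 to 59.6 and 23.3 to 62.5 CPM per kb.

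Lrp5 and both Kremen receptors fell as well. Lrp5 was read at 61.7 to 71.0 CPM in mature and 134 to 143 CPM in immature controls (log2 fold change -1.12 ± 0.08, adjusted p = 1.17e-09), whereas Lrp6 at 129 to 159 and 154 to 180 CPM changed by -0.24 ± 0.07, under 2-fold (edgeR quasi-likelihood). Kremen1 stood at 58.1, 58.7, 82.0 and 64.1 CPM in mature and 145, 150, 205 and 173 CPM in immature mTEC. Kremen2 (chr17:23741197-23745833) stood at 22.9, 25.2, 23.9 and 23.1 CPM against 77.6, 72.8, 61.4 and 51.2 CPM. Neither pair of groups overlapped, and Kremen1 fell by 1.38 and Kremen2 by 1.48 on the log2 scale.

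Secreted antagonists went both ways. Sfrp1 (chr8:23411502-23449632), the highest of the 56 genes per length in immature cells together with Ctnnb1, was read at 239, 221, 268 and 256 CPM in mature and at 720, 611, 927 and 883 CPM in immature mTEC. The groups were far apart, and Sfrp1 was 3.21-fold lower in mature cells (log2 fold change -1.68 ± 0.07, adjusted p = 5.89e-13, edgeR quasi-likelihood). Sfrp5 stood at 26.3 to 42.7 CPM in mature and 8.62 to 19.2 CPM in immature controls, a log2 fold change of 0.9997 ± 0.21 that fell just short of the 2-fold limit in control mice by edgeR and passed it by DESeq2. Sfrp2, Sfrp4 and Wif1 were too low to test, and Sfrp2 and Wif1 had no count in any immature library.

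Dkk1 (chr19:30545863-30549665), an inhibitor of Lrp co-receptors, had 22.4, 16.2, 17.7 and 19.4 CPM in mature control mTEC and no count in any of the 4 immature control libraries. With a limit of 3 counts over the group, it was at least 52.8-fold higher in mature mTEC (330 counts). In tKO mice it had 317 counts in mature and 2 in immature mTEC, both of the latter in 1 library. Dkk2 (chr3:132085292-132180304) was read at 17.1, 23.4, 15.5 and 15.4 CPM in mature and at 0, 0.818, 5.92 and 2.35 CPM in immature controls (ratio 8.83, interval 5.43 to 15.4). Dkk3, a divergent member of the family, went the other way, with 4.10, 6.13, 8.85 and 9.69 CPM in mature and 20.9, 18.4, 38.8 and 40.0 CPM in immature mTEC. Both of its groups split by line, and each mature value lay under each immature one (log2 fold change -2.03 ± 0.18, adjusted p = 2.41e-08, edgeR quasi-likelihood).

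Inside the cell, Tcf7 was the gene that rose. Tcf7 (chr11:52252371-52283014) was read at 106, 102, 104 and 109 CPM in mature and at 14.5, 43.8, 15.1 and 9.41 CPM in immature control mTEC. The mature values were tight, and 1 immature library, that of Rbfox1-line control 3, stood apart. Its log2 fold change was 2.44 ± 0.20 (adjusted p = 8.57e-09, edgeR quasi-likelihood) and 2.92 without that library. Thymocyte markers moved the same way, with 5 of 12 called higher in mature cells (Cd3g, Cd4, Cd8a, Ptprc and Thy1, of 6 tested). Cd4 lay at 26.3 to 34.0 CPM in mature and 2.15 to 10.2 CPM in immature libraries, Cd3e at 1.20 to 3.03 and 0 to 1.08 CPM, and Rag2 at 0 to 0.543 and 0 to 1.64 CPM. The highest immature Cd4 value came from the library that stood apart in Tcf7, where the 12 markers summed to 65.0 CPM. The highest immature sum, 76.5 CPM, was that of Rbfox2 tKO 1, where Tcf7 stood at 11.4 CPM. The part of thymocyte RNA in the Tcf7 change was not tested.

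Ctnnb1 itself was abundant in both, at 663 to 699 CPM in mature and 754 to 932 CPM in immature controls, a change of -0.30 ± 0.05 on the log2 scale that passed the adjusted p (0.000118, edgeR quasi-likelihood) but not 2-fold. A share of 14.6% of its exon bases overlaps Ulk4 on the opposite strand. Axin2, a feedback target of beta-catenin, stood at 18.6 to 24.8 CPM in mature and 11.3 to 17.5 CPM in immature mTEC (log2 fold change 0.55 ± 0.16). Tcf7l1 changed by 0.45 ± 0.10, Tcf7l2 by 0.25 ± 0.14 and Nkd1, another feedback inhibitor, by 0.34 ± 0.46, and only Tcf7l1 and Axin2 of these passed the adjusted p. Lef1 was too low to test in controls, with 3.02 to 7.17 CPM in mature and 0.852 to 3.23 CPM in immature cells. Within the TCF/LEF sum per length, Tcf7 took 70.5% ± 2.2 in mature and 36.1% ± 16.9 in immature cells, where Tcf7l1 took 49.97% ± 14.1.

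**Figure D3:**
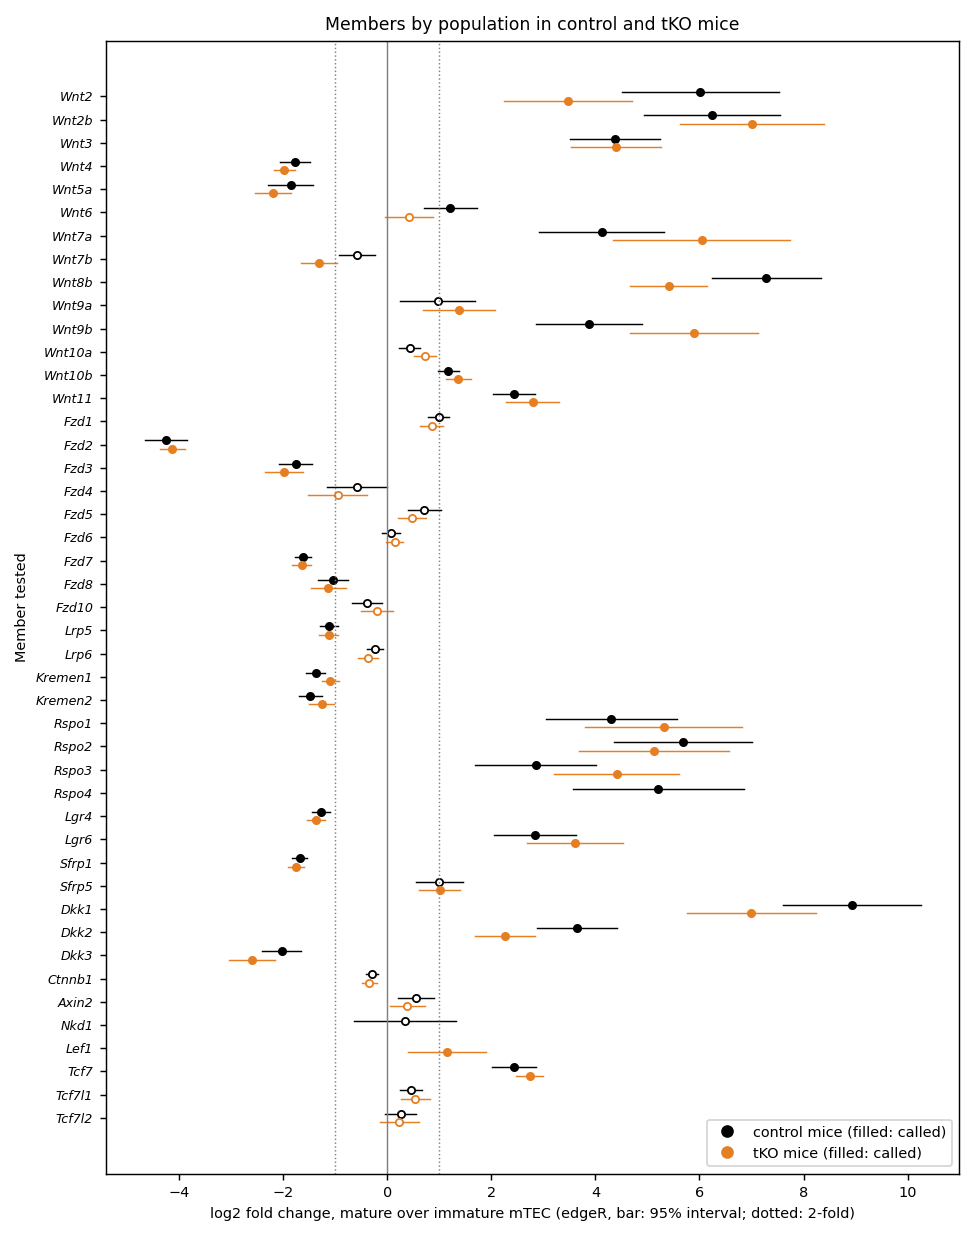
Log2 fold change of mature over immature mTEC (horizontal axis) for each gene tested, in control (black) and tKO (orange) mice. Points are edgeR estimates, bars 95% intervals, filled points are called, and dotted lines mark 2-fold. R-spondins and most ligands lie on the right, Fzd2, Fzd3, Fzd7, Fzd8, both Kremens and Lrp5 on the left, and estimates of genes near 0 counts in immature cells have wide bars and no fixed size.

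Markers of other cells moved with these changes too. Of the 7 mesenchymal markers, 5 (Dcn, Col3a1, Pdgfra, Col1a2 and Lum) were called lower in mature control mTEC and Pdgfrb higher. All 3 endothelial markers were called lower. Of 5 tuft cell markers, 4 (Trpm5, Avil, Dclk1 and Il25) were called lower as well. The 5 summed to 144 to 229 CPM in mature and 390 to 734 CPM in immature libraries of both genotypes, so the 2 sorts also differed in tuft cell RNA. Within the Rbfox1-line controls, where the mesenchymal sum was 355 to 614 CPM in immature and 469 to 539 CPM in mature libraries, the log2 fold changes were -4.37 ± 0.29 for Fzd2, -1.54 ± 0.09 for Sfrp1, -1.80 ± 0.19 for Wnt4, -1.59 ± 0.10 for Fzd7 and -1.66 ± 0.15 for Kremen2, while Fzd8 at -0.87 ± 0.19 was under 2-fold. Wnt5a fell by 1.27 there and by 2.45 on the log2 scale in the Rbfox2-line controls. The part of mesenchymal, endothelial and tuft cell RNA in the changes between populations was not tested. In all, 28 of 44 genes tested were called within the Rbfox1-line controls (background 32.8% in either direction) and 31 of 44 within the Rbfox2-line controls (background 36.3%). Both counts include the 12 genes called higher with under 10 counts in every immature control library. These passed the filter on low counts only through the mature libraries, so neither count is a result about these genes.

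Another 58 genes of the pathway, chosen by name for secretion, co-receptors, the destruction complex, planar polarity, nuclear partners and targets, were counted in the same way. Of 54 tested in control mice, 3 were called higher (5.56%, background 24.1%) and 11 lower (20.4%, background 10.7%). Both genes for making active ligand that could be tested fell: Wls, which carries Wnt proteins to the surface, from 257 to 428 CPM in immature to 125 to 146 CPM in mature libraries, and Porcn, which adds the lipid, from 6.54 to 9.41 to 1.73 to 2.15 CPM. Ptk7, a co-receptor of planar polarity, fell from 150 to 232 CPM to 33.7 to 41.7 CPM, and Vangl1 and Vangl2 of the same branch fell with it. Pygo1, a nuclear partner of beta-catenin, fell by 3.11 on the log2 scale and Ccnd1, a target in many cells, by 1.42. Sost, an Lrp inhibitor best known from bone, rose, with 22.8 to 30.4 CPM in mature and 0 to 1.62 CPM in immature cells, as did Frzb, another ligand-binding antagonist, with 5.74 to 8.98 against 0 to 1.62 CPM. Among the 20 cytoplasmic genes, Csnk1e and Amer1 were called, both lower.

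The tKO mice were compared in the same way and gave their own values. There, 18 of 43 genes were called higher (41.9%, background 23.7%) and 13 lower (30.2%, background 11.5%). Among the higher genes, Dkk1, Lgr6, Rspo1, Rspo2, Rspo3, Wnt2, Wnt2b, Wnt3, Wnt7a, Wnt8b and Wnt9b had under 10 counts in every immature tKO library. These passed the filter on low counts only through the mature libraries, so the count of 18 is not a result about these genes. With at least 10 counts in every library, 3 were called higher (10.7%, background 9.43%) and 11 lower (39.3%, background 10.8%). Of the calls, 15 higher and 12 lower were shared with control mice, Rspo4 and Wnt6 were called in controls alone, and Lef1, Sfrp5, Wnt9a and Wnt7b in tKO mice alone. The share of all genes called in both is not given here, so the shared calls are not a result about these genes. The Lef1 call was lost under the mouse block and by DESeq2 (adjusted p up to 0.0673 over its alternatives by edgeR and DESeq2). By line, Lef1 changed by 2.09 ± 0.55 on the log2 scale in Rbfox1 tKO mice and by 0.20 ± 0.44 in Rbfox2 tKO mice. The Sfrp5 call was under 2-fold in 5 of 17 alternatives, in 4 of them without a single library (the mature or immature one of Rbfox1 tKO 2 or of Rbfox2 tKO 2). Sfrp5 changed by 0.9997 in control and 1.01 in tKO mice, Rspo4 was not tested in tKO mice, and Lef1 was not tested in controls. Wnt9a changed by 0.97 ± 0.34 in control and 1.38 ± 0.33 in tKO mice, Wnt6 by 1.21 ± 0.24 and 0.42 ± 0.22, and Wnt7b by -0.59 ± 0.16 and -1.31 ± 0.17. Whether such steps differ between genotypes is tested by the interaction further on. Wnt4 was read at 67.2, 56.1, 63.6 and 67.5 CPM in mature and 219, 212, 318 and 225 CPM in immature mTEC of Rbfox1 tKO mice 2 and 3 and Rbfox2 tKO mice 1 and 2, and Fzd2 at 6.67, 7.91, 11.7 and 12.1 against 134, 107, 213 and 200 CPM. As in controls, neither gene's groups overlapped.

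Between tKO and control mice, none of the genes tested was called in either population. In mature mTEC, 48 were tested, with 0 called in Rbfox1 tKO (background 0.0166%) and 0 in Rbfox2 tKO (background 0.0277%) by edgeR. At an unadjusted p under 0.05 there were 4 (8.33%, background 3.35%) and 2 (4.17%, background 5.34%), and DESeq2 called 0 in each. In immature mTEC, 30 were tested, with 0 called in Rbfox1 tKO (background 0.0306%) and 0 in Rbfox2 tKO (background 0.0536%) by edgeR. There, 3 (background 5.90%) and 1 (background 6.25%) had an unadjusted p under 0.05 by edgeR, and DESeq2 called 0 in each. Taking both lines together, edgeR called 0 of 48 in mature (background 0.0166%) and 0 of 30 in immature cells (background 0.0306%), as did DESeq2. By edgeR, 5 in mature (background 4.495%) and 2 in immature cells (background 7.47%) had an unadjusted p under 0.05. With 2 mice against 2, hardly any gene in the genome was called either.

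The genes nearest to a call were low or moved little. Sfrp2 in mature Rbfox1 tKO mTEC stood at 2.67 and 2.64 CPM against 0.432 and 0.657 CPM in controls (log2 fold change 2.23 ± 0.64, adjusted p = 0.9996, edgeR quasi-likelihood). In the Rbfox2 line its values were 1.63 and 2.33 CPM in tKO and 1.91 and 2.73 CPM in control mice, and 16.1% of its exon bases overlap an opposite-strand gene model, as do 13.7% of those of Lef1 and 17.8% of those of Fzd5. Wnt10a was next, at 71.6 and 58.7 CPM against 52.2 and 51.7 CPM (0.33 ± 0.12). Dkk3 came first in the Rbfox2 line, at 3.53 and 5.82 CPM in mature tKO against 8.85 and 9.69 CPM in control mTEC (-0.95 ± 0.32, adjusted p = 0.731, edgeR quasi-likelihood). In immature cells of that line it stood at 25.5 and 27.9 against 38.8 and 40.0 CPM (-0.50 ± 0.21). In both populations the 2 tKO libraries lay below the 2 controls, while in the Rbfox1 line Dkk3 stood at 3.78 and 4.08 against 4.10 and 6.13 CPM in mature and at 21.4 and 27.5 against 20.9 and 18.4 CPM in immature cells. Wnt7b, next in the mature Rbfox2 line, differed by -0.53 ± 0.23, and Kremen1, next in its immature cells, by -0.25.

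In immature Rbfox1 tKO mTEC the leading genes were Wnt10b, at 78.1 and 62.5 CPM against 92.0 and 114 CPM (-0.51 ± 0.18), and Dkk2, at 2.68 and 2.50 against 0 and 0.818 CPM (2.50 ± 1.08). Wnt5a and Wnt7b led over both lines in immature cells with 0.42 ± 0.17 and 0.33 ± 0.15, and Wnt10a and Dkk3 in mature cells with 0.27 ± 0.08 and -0.69 ± 0.24. None of these passed the adjusted p.

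How far a difference could have been missed varies by gene. Over both lines, the 95% interval of the tKO effect stayed within 2-fold in either direction for 46 of 48 genes in mature and 27 of 30 in immature mTEC. For single lines it did so for 38 (Rbfox1) and 37 (Rbfox2) of 48 and for 23 and 25 of 30. For Ctnnb1, the interval over both lines ran from -0.17 to 0.06 in mature and from -0.13 to 0.14 in immature mTEC on the log2 scale. For Fzd2 it ran from -0.26 to 0.61 and from -0.19 to 0.37, for Wnt4 from -0.25 to 0.21 and from -0.06 to 0.46, and for Tcf7 in immature cells from -0.99 to 0.30. Whether the maturation step differed between genotypes was tested as an interaction, with 0 of 47 genes called by edgeR (background 0.0%) and 0 by DESeq2. By edgeR, 5 had an unadjusted p under 0.05 (10.6%, background 5.2%). Closest to a call were Wnt7b (-0.73 ± 0.23, adjusted p = 0.808, edgeR quasi-likelihood) and Wnt6 (-0.80 ± 0.33). The maturation log2 fold change of Wnt7b was -0.59 in control and -1.31 in tKO mice, and that of Wnt6 was 1.21 and 0.42.

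**Figure D4:**
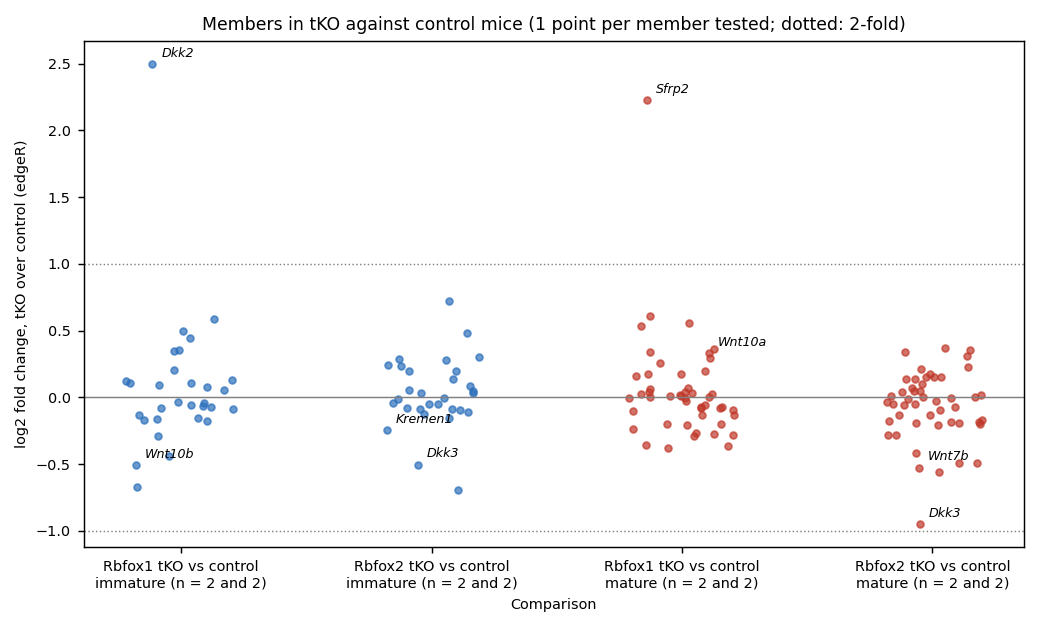
Log2 fold change of tKO over control (vertical axis) for each gene tested, 1 point per gene, in immature and mature mTEC of each line (2 mice against 2). Dotted lines mark 2-fold and the 2 genes with the smallest p are named. None of the genes was called, and those beyond the dotted lines include low-count genes such as Sfrp2 and Dkk2.

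The 2 lines differed more than the genotypes did, over all genes tested as well as in these. This comparison was chosen after the data were seen, and line goes together with whatever else separates the 2 colonies and their sorts. In immature mTEC, 2 of 30 genes were called between the lines (background 5.05%), so that count is not a result about these genes. Without the fold limit, 12 passed the adjusted p, a level at which the share over all genes is not given here. At an unadjusted p under 0.05 there were 18 of 30 by edgeR (background 35.5%). Wnt10b stood at 62.5 to 114 CPM in the Rbfox1 line and 32.9 to 55.8 CPM in the Rbfox2 line (log2 difference 1.02 ± 0.15, adjusted p = 0.000139, edgeR quasi-likelihood), and Dkk2 at 0 to 2.68 and 2.35 to 8.63 CPM (-2.14, adjusted p = 0.0204, edgeR quasi-likelihood). Wnt10b's 4 and 4 libraries did not overlap, and those of Dkk2 did. Both calls rested on single libraries: the Wnt10b difference was 0.85 to 0.94, under 2-fold, without the immature library of any one of Rbfox1 control 3, Rbfox2 control 1, Rbfox1 tKO 2 and Rbfox2 tKO 1, and Dkk2 missed the adjusted p by DESeq2 and without any one of Rbfox1 control 2, Rbfox2 control 1, Rbfox1 tKO 2, Rbfox1 tKO 3 and Rbfox2 tKO 2 (-2.16 to -1.61). Sfrp1, Fzd2, Wnt5a, Fzd10 and Ctnnb1 followed with lower levels in the Rbfox1 line, Fzd2 at 85.5 to 147 CPM against 175 to 229 CPM. In mature mTEC, edgeR and DESeq2 each called 0 of 48 (background 1.04%), with 13 at an unadjusted p under 0.05 by edgeR (27.1%, background 27.9%). Of these, Wnt10a, Wnt10b, Fzd2 and Sfrp1 passed the adjusted p under 2-fold, all lower in the Rbfox1 line.

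The maturation step of 4 genes differed between lines by the interaction's adjusted p (background 4.76%, edgeR quasi-likelihood). Wnt10b rose less in the Rbfox1 line (-1.31 ± 0.16, adjusted p = 1.58e-05) and Dkk2 more (2.47 ± 0.58, adjusted p = 0.0105). The Dkk2 call was lost without the immature library of Rbfox2 control 1 or of Rbfox2 tKO 2, and its value ran from 1.92 to 4.23 over the alternatives. Fzd10, at 16.5 to 26.4 CPM in immature mTEC of the Rbfox1 line and 35.9 to 39.4 CPM in those of the Rbfox2 line, changed by 0.01 ± 0.19 and -0.79 ± 0.19 in the controls (interaction 0.77 ± 0.20, adjusted p = 0.0217). That call was lost in 6 of 23 alternatives, in 5 of them without a single library (the immature one of Rbfox1 control 3, Rbfox1 tKO 3 or Rbfox2 tKO 1, or the mature one of Rbfox2 control 1 or Rbfox1 tKO 3). Wnt5a differed by 0.94 ± 0.27 (adjusted p = 0.0460), and this call was lost under 15 of 23 alternatives. The sum of 7 mesenchymal markers moved with line in immature mTEC, at 355 to 696 CPM in the Rbfox1 and 1848 to 2719 CPM in the Rbfox2 line, and all 7 were called lower in the former. Endothelial markers summed to 19.2 to 51.5 and 57.1 to 177 CPM, and Aire stood at 207 to 299 against 18.8 to 51.8 CPM. Their part in the differences between lines was not tested.

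**Figure D5:**
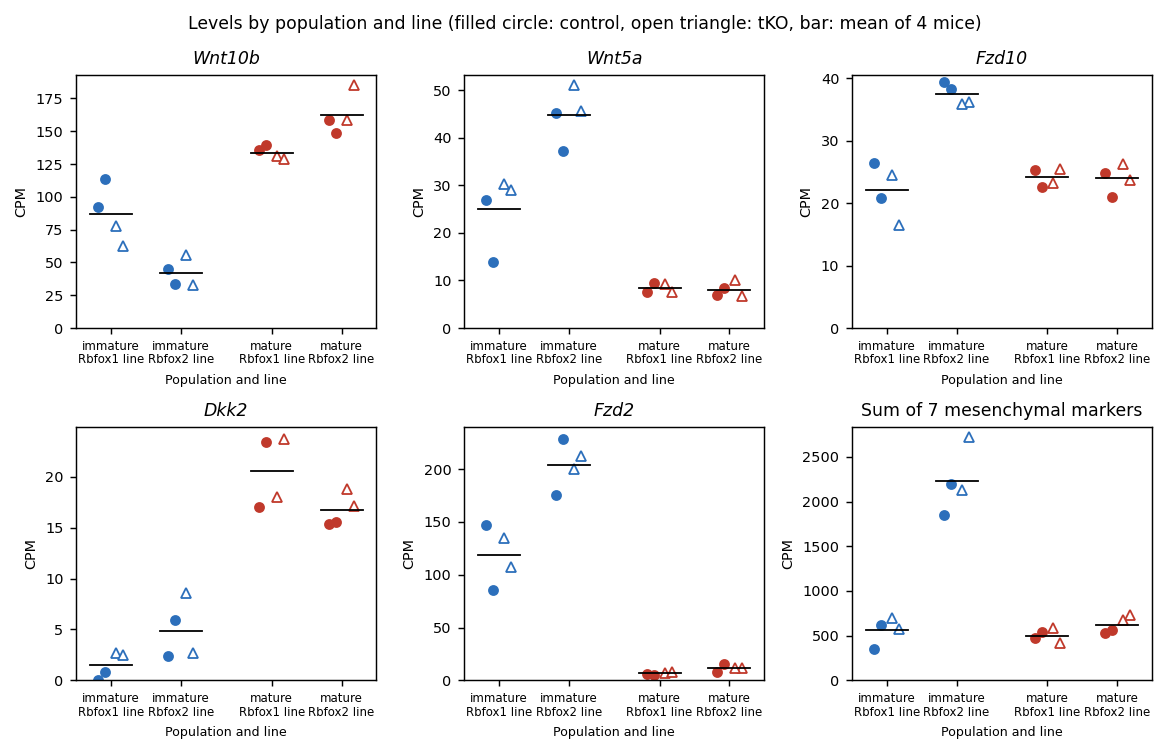
Levels in CPM (vertical axes from 0) of Wnt10b, Wnt5a, Fzd10, Dkk2 and Fzd2 and the sum of 7 mesenchymal markers, by population and line. Filled circles are control and open triangles tKO libraries, and bars are means of 4 mice. Immature Wnt10b is higher in the Rbfox1 line, while Wnt5a, Fzd10, Fzd2 and the mesenchymal sum are higher in the Rbfox2 line.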

How the data were processed

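RNA-seq counts of 16 libraries (8 mice, 2 sorted populations) were used. The authors prepared stranded poly(A) libraries, sequenced them on an Illumina HiSeq instrument and deposited raw counts per gene, not normalized. Per the labels, reads were aligned with HISAT2 2.1.0, processed with Picard 2.10.9 and counted with featureCounts 1.6.0 on mm10. The column names give down-sampling to 14500000 reads per mature and 10000000 per immature library, so depth differs by population, and low genes were more often at 0 in immature libraries. How the counting treated strand is not stated in the sources used here. The 35943 rows of assembled loci stayed in library totals and in every fit beside the 53464 Ensembl rows.

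Levels are CPM, counts per 1000000 of the effective library size (total times TMM factor), divided by kilobases of exon where genes are compared. Tests used edgeR 4.0.16 (R 4.3.3) on the deposited counts, with TMM scaling, a minimum count of 10 (filterByExpr) and quasi-likelihood F tests over all genes. Calls needed an adjusted p (Benjamini-Hochberg) below 0.05 and a change of over 2-fold, interactions the adjusted p alone. Standard errors came from the F statistic and intervals at 95% from its degrees of freedom. Control mature and immature libraries were compared over 4 mice, tKO likewise, and tKO with control within each population, with line in the model. DESeq2 1.42.0, other scalings and filters, thinning, sex, leaving out each library and a mouse block were alternatives. The test was tried on simulated counts. By their labels, the 2 libraries of each mouse are pairs. They deviated together from their group means (r from 0.176 to 0.302 over 11387 genes). This correlation cannot establish pairing, because each group held 1 female and 1 male and a shared sex difference would also give it. The mouse block left 29 genes called in control and 30 in tKO mice. Replicates differed by more than sampling noise in every group. The labels make the mice separate animals.

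The genes and the lists of markers and other pathway genes were chosen with earlier results of these data known. Named are the genes called between populations in control mice, the highest of each family per length, the intracellular genes, the 2 with the smallest p in each tKO comparison and those called in tKO mice alone, and genes named outside this rule (Wnt1, Wnt16, Fzd1, Fzd5, Fzd10, Lgr5, Wif1 and others too low to test) were chosen after their values were seen.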

Additional observations from a re-analysis of the deposited data

Results flagged for a closer look

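In 6 of 137 groups of 4 libraries examined gene by gene, 1 library stood apart from the other 3, where chance gives about 1 in 20 groups. In immature control mTEC, the library of Rbfox1-line control 3 had the highest Tcf7 level at 43.75 CPM (107 counts), against 9.413 to 15.08 CPM in the others, and the lowest Fzd3 level at 31.9 CPM, against 39.31 to 39.63 CPM. In immature tKO mTEC, the library of Rbfox1 tKO 3 was apart in Fzd8, at 26.98 CPM against 33.04 to 33.56 CPM, and in Wnt11, at 6.995 CPM against 2.656 to 3.356 CPM. The library of Rbfox2 tKO 2 had 8.631 CPM of Dkk2 (13 counts) against 2.498 to 2.685 CPM, and that of Rbfox2 tKO 1 had 318.2 CPM of Wnt4 against 211.9 to 225.1 CPM.

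The change from immature to mature mTEC differed between the 2 lines for 4 genes by the interaction test of edgeR. The difference, Rbfox1 line minus Rbfox2 line on the log2 scale, was -1.311 for Wnt10b, 2.465 for Dkk2, 0.7672 for Fzd10 and 0.9379 for Wnt5a. The calls were lost in 15 of 23 alternatives for Wnt5a, 6 of 23 for Fzd10 and 2 of 22 for Dkk2, and in none of 23 for Wnt10b.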

How the results depend on the processing

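All 29 genes called between populations in control mice kept their direction under every alternative run, and 26 stayed called. The exceptions were Fzd8, Lrp5 and Wnt6. With at least 10 counts in every library, 15 genes were called in control mice (5 higher) and 14 in tKO mice (3 higher). Fewer genes were tested there, and the values of the 28 kept in each shifted by a median of 0.15 and 0.13 on the log2 scale, which took Lrp5 and Fzd8 under 2-fold in control and Kremen1 and Lrp5 in tKO mice, and brought Fzd1 and Sfrp5 over it in control mice. Leaving out each library gave 28 to 32 called genes in control and 28 to 33 in tKO mice. In control mice it moved the size of a rise by over 1.5 times for Wnt2, Wnt2b and 7 others near 0 in immature cells: Rspo4 (to 7.04 on the log2 scale), Rspo1 and Wnt7a (to 5.67 and 5.92) without immature Rbfox1 control 2, Dkk2, Rspo3 and Wnt9b (to 5.44, 5.51 and 4.596) without immature Rbfox1 control 3, Wnt3 (to 5.95) without immature Rbfox2 control 1, and Rspo1, Rspo3, Wnt7a and Wnt9b (to 5.89, 4.88, 5.69 and 5.45) without immature Rbfox2 control 2. The tKO comparisons kept 0 called genes under each alternative, the replicate block included. The methods name sex-matched littermate controls without tying litters to numbers, mice of one line and number share their sex, and deviations of such pairs correlated at 0.193 to 0.313 in mature and 0.0884 to 0.121 in immature cells, so pairing was not established.

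Between lines in immature mTEC, 1 gene was called by DESeq2, 1 under the stricter count filter and 12 without the fold limit, and 0 to 4 when a library was left out (0 without immature Rbfox2 control 1 or Rbfox1 tKO 2, 4 without immature Rbfox1 control 2). In mature mTEC, 4 were called without the fold limit and 0 to 1 with a library left out (Fzd2 without mature Rbfox2 control 2). The interaction of population and line gave 2 with a fold limit added, 2 to 5 with a library left out and 6 with the replicate block. The cause was not tested. Counts at or near 0 in immature libraries limit how well the sizes of the largest rises are known.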
